A study of Caenorhabditis elegans with 2 samples.

Results

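The Hedgehog-related and patched-related genes of *Caenorhabditis elegans* were examined for binding of TRA-1, the only transcription factor of the GLI family in this worm. They were taken as the protein-coding genes of the Ensembl WBcel235 annotation with names that begin with wrt-, grd-, grl-, ptr- or ptc-, which gave 83 genes of 19973 on the nuclear chromosomes. Of these, 57 encode ligand-like proteins (10 wrt, 16 grd and 31 grl genes) and 26 encode patched-like membrane proteins (24 ptr and 2 ptc genes). Binding was mapped by chromatin immunoprecipitation and sequencing with an antibody against GFP in whole L4 larvae of strain DZ840 (age 48 h), which had been synchronised by starving L1 larvae after bleaching. All animals carried the allele tra-1(ez72), a CRISPR insertion of biotag::GFP::TEV::3xflag at the tra-1 locus on chromosome III. There were 2 biological replicates of this 1 genotype, stage and treatment, with no record of the sex of the animals. With 1 group no condition can be compared, and an untagged strain was not analysed here. In whole animals, binding in a few cells cannot be told apart from weak binding in many.

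In flies and vertebrates, Hedgehog ligands bind the membrane protein Patched, which releases Smoothened and in the end changes the activity of GLI factors, and the gene for Patched is itself a target of GLI. The worm has no Smoothened and no true Hedgehog, and TRA-1 acts at the end of the sex determination pathway instead. It does have large families of secreted proteins with a Warthog (wrt), Ground (grd) or Ground-like (grl) domain, some of which end in the self-cleaving Hog domain of Hedgehog. It also has many patched-related (ptr) genes beside the patched homologues ptc-1, needed in the germ line, and ptc-3. Many members of these families act in the epidermis and in molting.

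The peak lists were on the ce11 build, whose sequence WBcel235 shares, without read counts, which leaves library depth unknown. The authors' conservative list, called the main list here, drew on both replicates and held 2703 sites. The list of replicate 1 alone held 1682 sites and that of replicate 2 alone held 1355. Each site has a summit, a signal that ranks sites within a list, and an irreproducible discovery rate (IDR). The IDR is the estimated share of irreproducible sites among those at that rank or above. It is not the share of sites missing from a replicate's own list. Genes with at least 1 summit in the gene or in the 2000 bp before it are called bound.

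TRA-1 bound 10 of the 83 genes (12%, 95% Wilson interval 6.68 to 20.8%), beside 11.2% of all protein-coding genes (2235 of 19973). The share was thus close to that of the genome as a whole. The bound ligand-like genes were wrt-1, wrt-3, grl-3, grl-17 and grl-26, and the bound patched-like genes were ptr-12, ptr-13, ptr-17, ptr-19 and ptr-24. These 10 genes held 12 sites, which make up 11 separate regions because the pair at ptr-17 overlaps. By family, 2 of 10 wrt genes (20.0%, interval 5.67 to 51.0%), 3 of 31 grl genes (9.68%, 3.35 to 24.9%) and 5 of 24 ptr genes (20.8%, 9.24 to 40.5%) were bound. None of the 16 grd genes (upper Wilson bound 19.4%) and neither ptc-1 nor ptc-3 was. The intervals cover counting error only, and genes are not samples, so no test was made between families.

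**Figure D1:**
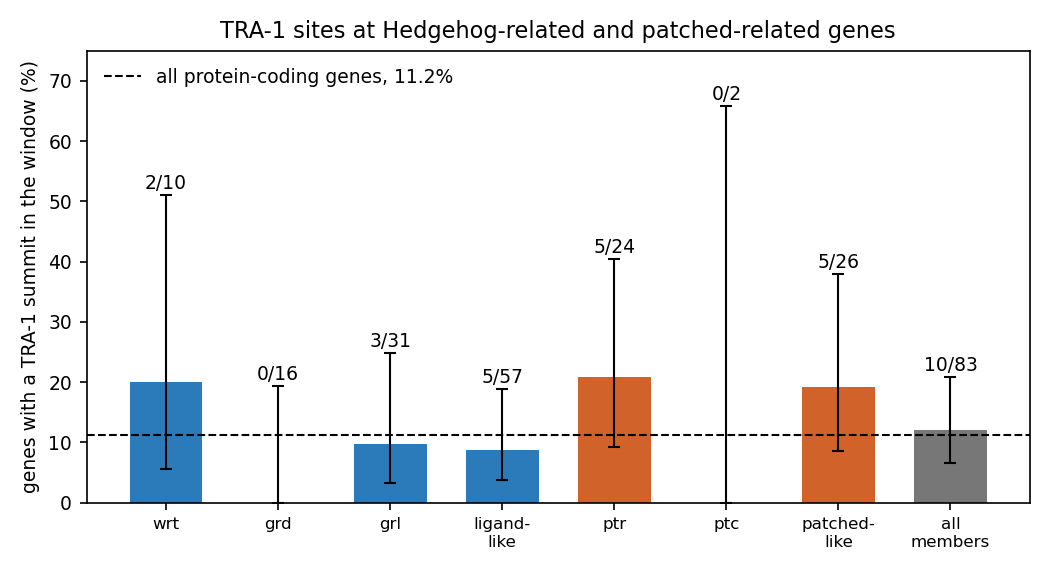
Share of genes with a TRA-1 summit in the gene or the 2000 bp before it (percent, vertical axis) for each family and for the ligand-like, patched-like and whole sets, with 95% Wilson intervals and bound over total genes above each bar. The dashed line at 11.2% is the share of all protein-coding genes, and it lies within the interval of every bar.

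The patched-like genes were bound at 5 of 26 (19.2%, interval 8.51 to 37.9%) and the ligand-like genes at 5 of 57 (8.77%, interval 3.81 to 18.9%). The order of these shares turned under 4 of the 12 other rules described further on. It was 3.85% of patched-like against 7.02% of ligand-like genes in replicate 1 alone, and 0% against 5.26% in replicate 2 alone. It was 7.69% against 8.77% among the stronger sites of the main list and 0% against 3.51% with promoters only. The families also differed in length. A ligand-like gene had a median length of 1746 bp and a patched-like gene one of 6153 bp, against 2027 bp for all protein-coding genes, so the windows searched had medians of 3746, 8153 and 4027 bp. Of all protein-coding genes with a window in the middle range of the ligand-like genes (3016 to 4752 bp, their quartiles), 8.24% were bound, beside 4 of the 29 ligand-like genes in that range (13.8%). Of those with a window in the middle range of the patched-like genes (7031 to 10998 bp), 17.3% were, beside 3 of the 12 patched-like genes there (25%). Counted per length, there were 2.05 gene-site pairs per 100 kb of window at ligand-like genes, 2.99 at patched-like genes and 2.70 at all protein-coding genes. The strongest site of a bound gene had a median signal of 136.3 at ligand-like genes (106.6 to 245.0), 90.24 at patched-like genes (79.28 to 127.9) and 112.5 at all bound genes. The ligand-like median is the value of grl-26. The peaks of grl-26, wrt-3, grl-3 and ptr-13 overlapped tRNA or small nucleolar RNA genes, as described below.

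The members were unevenly spread over the chromosomes. Chromosome V held 28 of the 57 ligand-like genes, and there 7.85% of all protein-coding genes were bound, the lowest share of any chromosome. Chromosomes I and II held 15 of the 26 patched-like genes, with 11.8% and 11.0% of all their protein-coding genes bound. Of all members, 2 were bound on each of I, II, IV and V and 1 on each of III and X.

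The strongest of the 12 sites lay 1677 bp upstream of wrt-1 (WBGene00006947, 7530996 to 7533246 on the plus strand), which encodes a Warthog protein. Its summit at position 7529319 of chromosome II had a signal of 245.0, rank 138 of 2703, and the lowest IDR that the list gives, 1e-05. Its signal was 133.9 in replicate 1 and 108.2 in replicate 2, and both replicates' own lists held it. The summit also lay 324 bp upstream of ZK1290.5, which stands between the site and wrt-1 on the same strand and ends 64 bp before wrt-1 begins. Its neighbour wrt-10, which faces wrt-1 across 15 bp, was not bound, and the nearest main site to it was this one, 3943 bp past its end.

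The site of wrt-3 (WBGene00006949, 9473633 to 9477456 on the minus strand), another Warthog gene, lay 283 bp upstream of its start at position 9477739 of chromosome IV. It had a signal of 146.1 and rank 653, with an IDR of 8e-05 and signals of 66.48 in replicate 1 and 91.85 in replicate 2. Both replicates' own lists held it. The summit lay in an intron of cng-3, a cyclic nucleotide-gated channel gene that overlaps the upstream region of wrt-3, and 40 bp from a small nucleolar RNA gene, F38E11.14. The site of grl-26 (WBGene00001735, 321514 to 322814 on the minus strand), in its first intron 177 bp after the start at position 322637 of chromosome IV, had a signal of 136.3, rank 779 and an IDR of 0.000212. Its replicate signals were 57.64 and 80.63, and both replicates' own lists held this site too. These 3 sites, at wrt-1, wrt-3 and grl-26, were the only ones of the 12 in the lists of both replicates.

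The site of grl-3 (WBGene00001712, 11411511 to 11412894 on the plus strand) lay in intron 3, 752 bp after the start at position 11412263 of chromosome V, with a signal of 129.5, rank 878 and an IDR of 0.000337. Its signals were 60.64 in replicate 1 and 63.56 in replicate 2, and neither replicate's own list held it. The summit also lay 1261 bp upstream of K03B8.8. The site of grl-17 (WBGene00001726, 13561973 to 13563941 on the minus strand) lay 1461 bp upstream of its start at position 13565402 of chromosome V, with a signal of 106.6, rank 1322 and an IDR of 0.00767. It was the least even of the 12 sites, with a signal of 73.5 in replicate 1 and 30.89 in replicate 2, and was in the list of replicate 1 alone. It stood nearer to slrp-1, 461 bp upstream of that gene, than to grl-17.

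Among the patched-like genes, the strongest site was that of ptr-13 (WBGene00004227, 11156589 to 11162481 on the minus strand), with a signal of 127.9, rank 910 and an IDR of 0.000294. It lay in intron 8, 4623 bp after the start, at position 11157858 of chromosome II. Its signals were 69.05 in replicate 1 and 57.97 in replicate 2, and only the list of replicate 1 held it. None of the other 6 patched-like sites was in either replicate's own list. Over all 12 member sites, 7 (58.3%) were in neither, beside 34.6% of the 2703 main sites.

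Of the 5 strongest sites, 3 had their summit inside a tRNA gene and another, that of wrt-3, lay beside the small nucleolar RNA gene named above. The tRNA genes, WBGene00023092 in grl-26, WBGene00014422 in grl-3 and WBGene00014426 in ptr-13, are 72, 73 and 73 bp long and lie in introns of their hosts. Their sequences are shown because they are what stands at the summits. Each is the 101 bases centred on the summit, on ce11, read on the strand of the member gene. In wrt-1 the capitals mark GAGACGC, read on the other strand. In wrt-3 they mark the part of the small nucleolar RNA gene within the window. In grl-26, grl-3 and ptr-13 they mark GGTTCNA, a word of the internal promoter of tRNA genes that was searched after the sites were seen.
wrt-1, chrII:7529269-7529369, plus strand: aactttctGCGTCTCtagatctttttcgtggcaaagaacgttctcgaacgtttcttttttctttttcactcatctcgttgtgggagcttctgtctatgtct
wrt-3, chrIV:9477689-9477789, minus strand: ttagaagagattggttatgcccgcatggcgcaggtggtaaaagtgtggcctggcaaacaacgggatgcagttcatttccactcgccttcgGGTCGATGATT
grl-26, chrIV:322587-322687, minus strand: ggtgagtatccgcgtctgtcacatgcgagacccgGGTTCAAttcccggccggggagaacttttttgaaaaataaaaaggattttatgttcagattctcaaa
grl-3, chrV:11412213-11412313, plus strand: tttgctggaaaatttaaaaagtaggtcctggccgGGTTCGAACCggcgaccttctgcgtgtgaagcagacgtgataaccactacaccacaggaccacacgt
ptr-13, chrII:11157808-11157908, minus strand: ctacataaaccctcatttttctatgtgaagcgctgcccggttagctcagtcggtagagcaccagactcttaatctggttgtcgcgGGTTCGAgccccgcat

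Over all 12 sites, 4 (33.3%) lay within 500 bp of a tRNA, small nuclear RNA or small nucleolar RNA gene, beside 15.3% of the 2703 main sites and 14.7% of the 2155 main sites in the window of any protein-coding gene. Without sites near such genes, a count added after the sites were seen, 6 of the 83 genes were bound (7.23%), beside 9.54% of all protein-coding genes. The genes no longer bound were wrt-3, grl-3, grl-26 and ptr-13. Their part in the signal at the host genes was not tested. Of the 12 sites, 5 (41.7%) lay in the window of another protein-coding gene as well, those of wrt-1, wrt-3, grl-3, grl-17 and ptr-12, against 26.4% of main sites in any window. The sites that were neither shared nor near a small RNA gene numbered 5 of the 12 (41.7%), beside 62.7% of main sites in any window and 66.7% of all main sites. All 5 were at patched-like genes, namely ptr-17 (a pair), ptr-19 and ptr-24 (a pair). Even so, another gene's start was often nearer to the summit than that of the member. It was that of mxt-1 for the ptr-17 pair (4008 and 3789 bp, against 5146 and 5365 bp). It was that of clec-163 for ptr-19 (4245 against 8251 bp) and of mxl-3 for 1 ptr-24 site (4689 against 8087 bp). For the other ptr-24 site the nearest start was that of ptr-24.

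**Figure D2:**
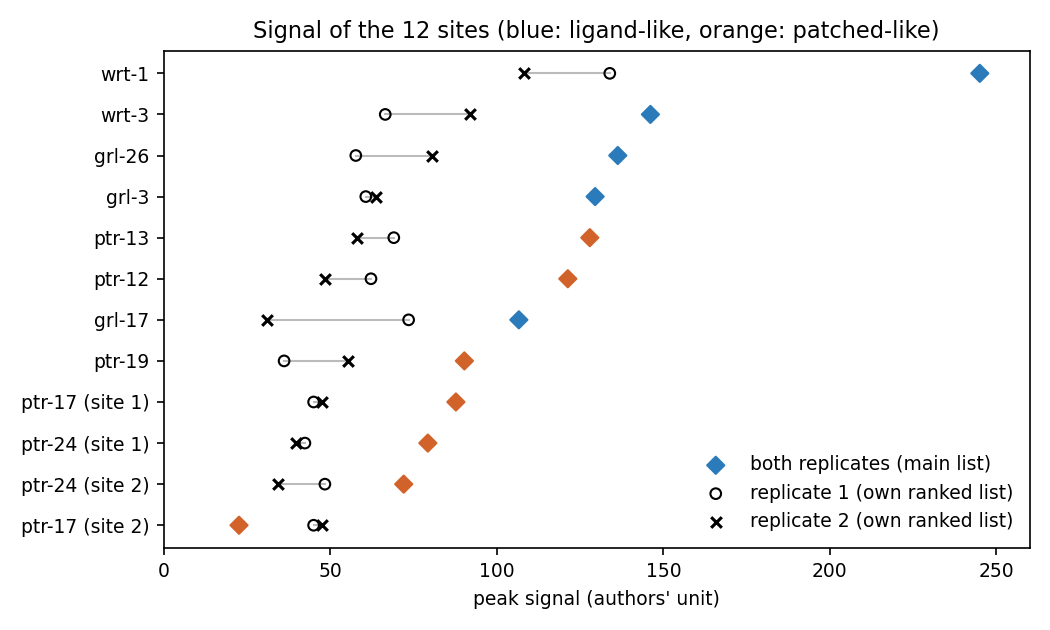
Peak signal, in the authors' unit (horizontal axis), of the 12 sites in the main list (diamonds, blue for ligand-like and orange for patched-like genes) and of the strongest overlapping peak in the ranked list of replicate 1 (circles) and replicate 2 (crosses). The main-list signal runs from 245.0 at wrt-1 to 22.58 at the weaker ptr-17 site, and the replicates stand farthest apart in ratio at grl-17, with 73.5 and 30.89.

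The pair at ptr-24 (WBGene00004238, 13338028 to 13348125 on the plus strand) lay 8087 and 4000 bp after its start, at positions 13346115 and 13342028 of the X chromosome. PTR-24 has been placed with the Ground-like protein GRL-21 in a route that controls fat storage. The signal of the site farther into the gene was 79.28 (rank 2263), with 42.36 in replicate 1 and 39.76 in replicate 2. That of the other was 72.03 (rank 2487), with 48.36 and 34.26. The latter lay in the first intron of the longest transcript and 153 bp upstream of the start of a shorter one. It is shown, chosen after its values were seen, because it was the only patched-like summit within 1000 bp of an annotated transcript start. The IDR of this site was 0.0063, and the second thresholded list of both replicates, described further on, did not hold it. The capitals mark TGATAAG, a word of the kind bound by GATA factors, which was at 9.29% of main summits and at 2.15% and 1.81% of the windows 500 bp to the left and right.
ptr-24, chrX:13341978-13342078, plus strand: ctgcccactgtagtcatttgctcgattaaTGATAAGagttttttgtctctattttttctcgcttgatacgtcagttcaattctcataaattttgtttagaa

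The site of ptr-12 (WBGene00004226, 2587527 to 2595294 on the minus strand), at position 2587639 of chromosome I, had a signal of 121.3 and rank 1026, with 62.2 in replicate 1 and 48.49 in replicate 2. It lay in the 3' UTR, in the last of 13 exons, 112 bp before the gene's end. The same summit was 1515 bp upstream of fbp-1, the gene of a gluconeogenic fructose bisphosphatase on the same strand. The site of ptr-19 (WBGene00004233, 10781853 to 10791176 on the plus strand) lay in intron 13, 8251 bp after the start at position 10790104 of chromosome III, with a signal of 90.24, rank 1812 and an IDR of 0.00504. Its replicate signals were 36.11 and 55.31.

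The pair of sites at ptr-17 (WBGene00004231, 12835115 to 12843331 on the plus strand) lay in intron 12, 5146 and 5365 bp after the start, at positions 12840261 and 12840480 of chromosome I. Their signals were 87.7 (rank 1917) and 22.58 (rank 2605). The strongest overlapping peak had the same signal for both sites, 44.97 in replicate 1 and 47.64 in replicate 2. Whether either site also overlaps a weaker peak of a replicate was not counted.

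The sites of the families lay in different places. Of the 5 ligand-like sites, 3 were upstream of the gene and 2 were in introns, with a median distance of 752 bp from the start. All 7 patched-like sites lay inside the gene, 6 in introns and 1 in the 3' UTR, with a median distance of 5365 bp. Over all 2820 gene-site pairs of the main list, 61.3% were upstream and the median distance was 1010 bp. At genes at least as long as the shortest patched-like gene (3489 bp), 43.3% of 1373 pairs were upstream and the median distance was 1591 bp. Of the 7 patched-like sites, 6 lay past the middle of the gene (85.7%), against 42.0% of the pairs inside such longer genes. The 7 sites come from 5 genes of 5893 to 10098 bp. The longer genes were set by a minimum length only and were not matched to these. No test was made of these differences. Promoters only were taken from 1000 bp upstream to 200 bp downstream of the gene's start. With these, 2 of the 83 genes (2.41%) were bound, wrt-3 and grl-26, beside 5.63% of all protein-coding genes. No patched-like gene was.

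**Figure D3:**
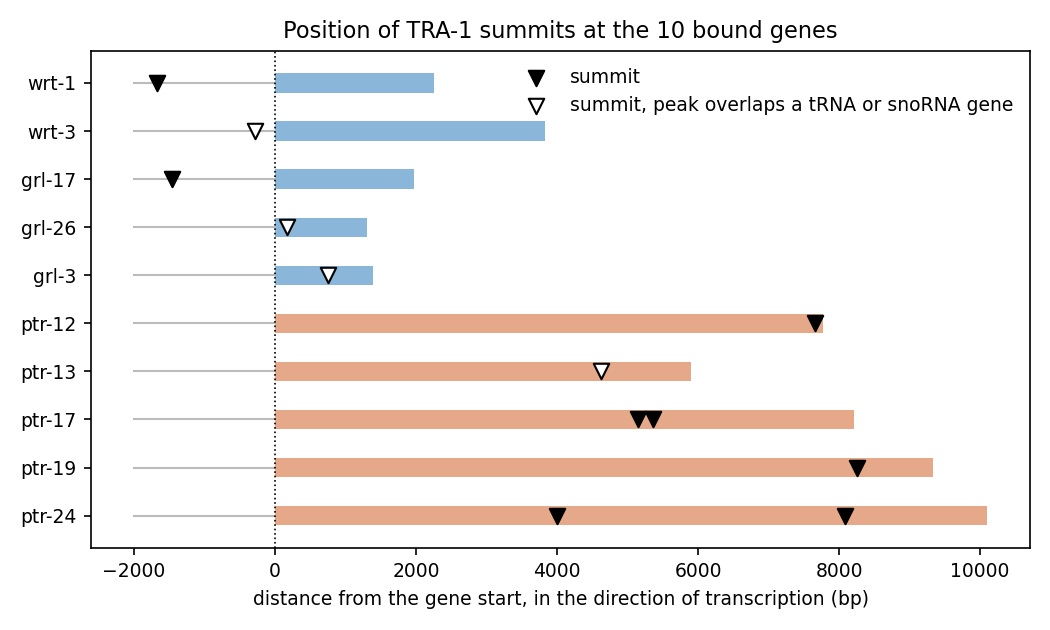
Position of each summit (triangles) from the gene's start, in bp in the direction of transcription (horizontal axis), for the 10 bound genes. Bars are genes to scale, blue for ligand-like and orange for patched-like, thin lines are the 2000 bp upstream, and open triangles mark peaks that overlap a tRNA or small nucleolar RNA gene. All 7 patched-like summits lie inside the gene, from 4000 to 8251 bp after the start.

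The TRA-1 core sequence TGGGTGGTC was at none of the 12 sites. With at most 1 mismatch it was absent within 50 bp of every summit (0 of 12, upper Wilson bound 24.2%) and from the whole of each peak, where 2.15% and 4.59% of all main sites held it. With so few sites, these shares cannot be told apart from those of the main list. Of the other words searched on both strands within 50 bp of the summit, CTCTCTC was at 2 sites (ptr-12 and grl-17), against 8.44% of main summits. GAGACGC was at 2 (wrt-1 and ptr-12), against 6.51%. AGGTCA was at 1 (the ptr-24 site at position 13346115), against 3.92%. TGATAAG was at 1, the other ptr-24 site, at position 13342028. GGTTCNA was at 4 sites, those of grl-26, grl-3, ptr-13 and ptr-19, against 10.5% of main summits and 3.26% and 3.74% of the windows to the left and right. A match of letters is a description of the sequence. The windows at the 12 summits held 46.9% G and C, those of all main summits 45.8%.

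The 73 unbound genes lay about as far from a main site as other unbound genes. For 52 of them (71.2%) the gap from either end of the gene to a main site was over 10000 bp, and the median distance was 21210 bp. Over all 17738 unbound protein-coding genes these values were 70.2% and 19660 bp. Sites just outside the window lay past the ends of wrt-5 (299 bp), grl-15 (601 bp), grl-6 (787 bp) and grl-14 (1223 bp). The site past wrt-5 had a signal of 170.0 and was assigned to pcn-1, the gene of the replication clamp PCNA. Farther past the end lay those of ptr-20 (2453 bp), grd-7 (2754 bp), wrt-10 (3943 bp), ptr-2 (3955 bp), grl-19 (4193 bp), wrt-4 (4219 bp) and ptr-6 (4564 bp). The nearest site upstream of grd-6 lay 2433 bp away with a signal of 3.62. Still farther sites lay past the ends of grl-24 (5009 bp), grl-11 (6294 bp), grl-13 (7595 bp) and ptr-23 (9696 bp). Upstream lay those of wrt-2 (5695 bp), ptr-16 (7317 bp), grl-22 (7521 bp), ptc-3 (7753 bp) and grl-4 (9308 bp).

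The unbound members with no main site so near were 37 ligand-like and 15 patched-like genes. Among the wrt genes they were wrt-6, wrt-7, wrt-8 and wrt-9. Among the grd genes they were grd-1 to grd-5 and grd-8 to grd-16. The trio grd-13, grd-3 and grd-10 on chromosome IV, with gaps of 147 and 601 bp, and the cluster grl-27 to grl-31 on V held no main site. Among the grl genes the others were grl-1, grl-2, grl-5, grl-7 to grl-10, grl-12, grl-16, grl-18, grl-20, grl-21, grl-23 and grl-25. Of the patched-like genes they were ptc-1, ptr-1, ptr-3 to ptr-5, ptr-8 to ptr-11, ptr-14, ptr-15, ptr-18, ptr-21, ptr-22 and ptr-25.

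Weaker sites that did not reach the threshold of the main list, an IDR of 0.01, were searched in the ranked list of both replicates. Such a site lay in the window of 63 of the 73 unbound genes (86.3%), beside 77.8% of the 17738 unbound protein-coding genes. The lowest IDR was under 0.05 at 6 of the 73 (8.22%), beside 6.71% of all unbound genes. These were ptc-3 (IDR 0.0237), ptc-1 (0.0250), wrt-9 (0.0360), ptr-21 (0.0379), grl-21 (0.0388) and grl-13 (0.0480). The homologues of Patched were thus the unbound members nearest to the threshold. The lowest IDR is taken over all ranked sites in a window, and a longer window can hold more of them. The windows of ptc-1 and ptc-3 were 9294 and 9182 bp long, against a median of 4027 bp for all protein-coding genes. They held 8 and 9 ranked sites. The part of window length in these IDRs was not tested. The ptc-3 site lay 1850 bp upstream of its start with a signal of 52.86, and that of ptc-1 lay 861 bp upstream with a signal of 58.13. That of grl-21, the partner of PTR-24 named above, lay 264 bp upstream with a signal of 68.61. That of ptr-21 had a signal of 61.37. The best ranked site of lpr-1, an unbound epidermal gene on the same chromosome, had the same signal and IDR. The median signal of the main list was 105.3. Just above 0.05 lay ptr-4 (0.0503) and grd-11 (0.0514), the lowest of the grd genes. No ranked site at all lay in the windows of 10 members, wrt-7, grd-4, grd-14, grl-10, grl-11, grl-18, grl-23, grl-24, ptr-10 and ptr-15. Of these, grd-14 and grd-4 are neighbours on X with 184 bp between them.

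**Figure D4:**
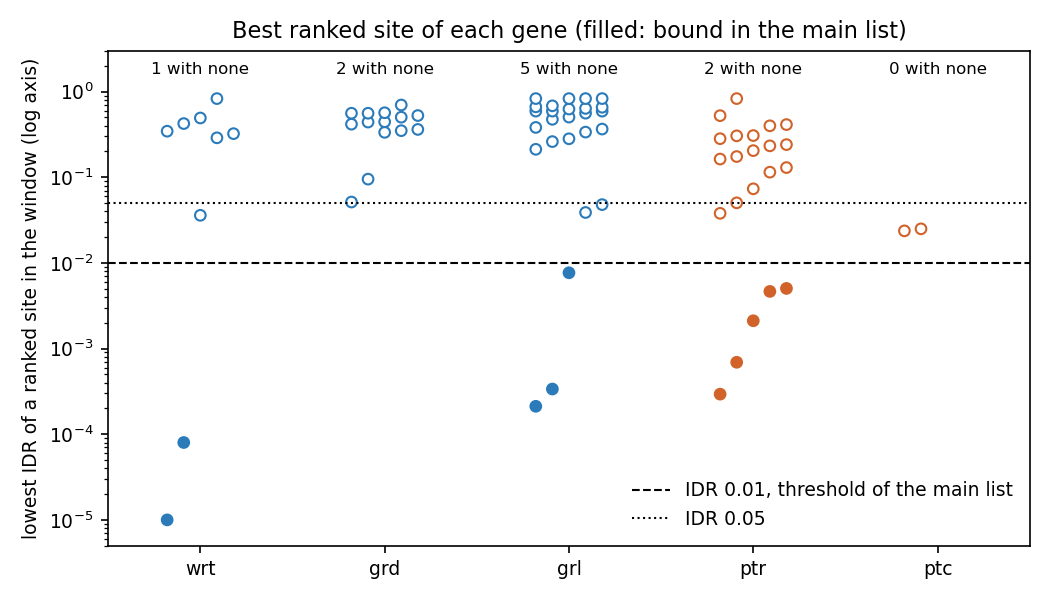
Lowest IDR of a site in the ranked list of both replicates (vertical axis, logarithmic) for each member, by family, with filled points for genes bound in the main list and the number of genes without a ranked site above each family. The dashed line is the threshold of the main list and the dotted line an IDR of 0.05. Both ptc genes lie between the lines, at 0.0237 and 0.0250, and no grd gene lies under either.

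The count of bound members moved with the list and the window. The second thresholded list of both replicates held more sites (3168). It gave 8 bound members (9.64%), beside 12.9% of all protein-coding genes, and lacked grl-3 and ptr-19. Replicate 1 alone gave 5 (6.02%), beside 7.6% of all genes, namely wrt-1, wrt-3, grl-17, grl-26 and ptr-13. Replicate 2 alone gave 3 (3.61%), beside 6.22%, namely wrt-1, wrt-3 and grl-26. Patched-like genes made up 1 of the 5 in replicate 1 and none of the 3 in replicate 2. At an IDR of at most 0.001 there were 6 (7.23%), beside 6.12%, namely wrt-1, wrt-3, grl-3, grl-26, ptr-12 and ptr-13. Among the stronger sites of the main list, those above its median signal, there were 7 (8.43%), beside 6.4%. A window from 1000 bp upstream gave 8 (9.64%), beside 8.83%, without wrt-1 and grl-17. A window extended 1000 bp past the end gave 13 (15.7%), beside 13.7%, and added wrt-5, grl-6 and grl-15. Any base of the peak gave the same 10 (12%), beside 12%. With each summit given only to the gene with the nearest start there were 6 (7.23%), beside 10.3%. Of these, 5 were among the 10 and the other was grl-15. The genes lost were wrt-1, grl-17, ptr-12, ptr-17 and ptr-19. Without sites near tRNA genes alone there were 7 (8.43%), beside 10.1%. Under these 13 rules wrt-3 was bound throughout, except without sites near any small RNA gene, and grl-26 throughout, except without sites near tRNA genes or near any small RNA gene. No grd or ptc gene was bound under any of them.

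**Figure D5:**
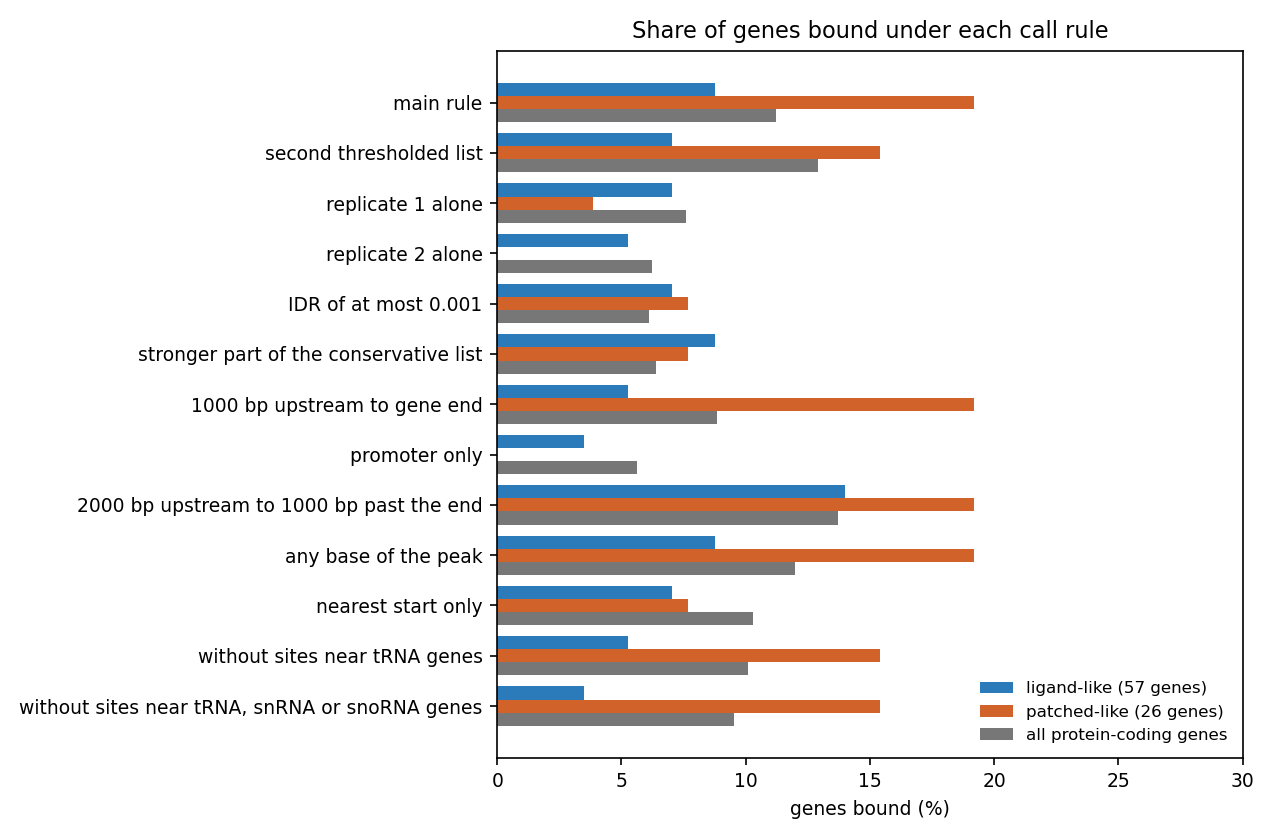
Share of genes bound (percent, horizontal axis) among ligand-like genes (blue), patched-like genes (orange) and all protein-coding genes (grey) under the main rule and each alternative list, window or assignment. The patched-like share runs from 19.2% under the main rule to 0% in replicate 2 alone and with promoters only, and the ligand-like share from 14% to 3.51%.

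Of 15 other genes related to Hedgehog signalling, 1 was bound (6.67%), beside 11.2% of all protein-coding genes. It was tra-1, the tagged gene itself. It is 24312 bp long and held 7 sites, the strongest 556 bp upstream of its start (signal 137.2). The weakest had signals of 20.32 and 10.74 and stood close to stronger ones. They lay at positions 11194248 and 11188539 of chromosome III, beside summits at 11194046 and 11188340. The unbound genes included qua-1 and hog-1, which encode other Hog-domain proteins, and che-14, a homologue of Dispatched. They also included daf-6, a patched-related gene of glia, ncr-1 and ncr-2, homologues of the Niemann-Pick C1 protein with a sterol-sensing domain, and scp-1. The others were ptd-2, tra-2, hhat-1, hhat-2, lrp-1, gpn-1 and lon-2. A main site lay 900 bp from qua-1, outside its window. The lowest IDR among these unbound genes was 0.125, at lrp-1, a megalin homologue, and che-14, daf-6 and hhat-2 had no ranked site in their windows.

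Regulators and effectors of molting and the epidermis were bound at 3 of 25 (12%), near the share of all genes. The 3 encode transcription factors of larval timing and molting, with sites 308 bp upstream of myrf-1 (signal 130.1, rank 865), 413 bp after the start of blmp-1 in an intron (115.2, rank 1122) and 1322 bp upstream of lin-29 (87.96, rank 1904). The nuclear receptor genes nhr-23 and nhr-25, whose products drive molting, were not bound and had ranked sites with IDRs of 0.0371 and 0.0381. That of lin-42, the homologue of the clock gene period, was 0.0226. That of lpr-1, most likely the ptr-21 site named above, was 0.0379. The others, also unbound, were bed-3, grh-1, elt-1, elt-3, mlt-8 to mlt-11, noah-1, noah-2, fbn-1, nas-36, nas-37, let-653, lpr-3, nekl-2, nekl-3 and acn-1.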

How the data were processed

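All data were peak lists on ce11, per the labels, with 2 replicates in 1 group. Each site has a score, a deposited whole number that rises as IDR falls (lowest in the main list 830, an IDR of 0.01), a signal deposited by the authors on a scale not given, and deposited −log10 values of q and, in ranked lists, of IDR. For the aligner and the peak caller, names are not given in the sources used. Summits are 1-based positions. Genes, transcripts and small RNA genes come from Ensembl release 115 (WBcel235) and sequence from the RefSeq WBcel235 assembly. Signals per replicate are those of the strongest overlapping peak in its own ranked list. Members and lists were chosen with earlier results of these data known, and no test was made over genes. Named were all bound members, unbound members with distances up to 10000 bp, and bound genes of 2 other lists. On simulated data, 30 of 30 planted genes were recovered among 19973. The planted summits were drawn inside the windows that the call searches, so this checks the code of the call only. Software was pandas 2.3.3 and numpy 2.4.6 under Python 3.11.15, with scipy 1.17.1 for intervals and matplotlib 3.10.9 for plots. The word GGTTCNA and the count without small RNA sites were added after the sites were seen.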

Additional observations from a re-analysis of the deposited data

How the results depend on the processing

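Of 102 alternative values, 73 stayed within 1.5 times the main count or within the interval of the main share, and 29 did not. The 73 include the grd and ptc counts and the shares of sites with the TRA-1 core, which were 0 under every setting. Where a setting only takes sites away, a 0 could not change, so the 73 is no measure of stability. No paired analysis was possible because there was 1 group. With 1 replicate left out, the bound members numbered 3 to 5 in place of 10, the grl genes 1 to 2, the ptr genes 0 to 1, and the patched-like share was 0 to 3.85%. At an IDR of at most 0.001, 6 members and 2 ptr genes were bound (7.69% of patched-like genes), and in the stronger part of the main list 2 ptr genes were (7.69%). From 1000 bp upstream, 1 wrt gene was bound. With promoters only, 2 members were bound, 1 wrt, 1 grl and 0 ptr genes, 3.51% of ligand-like and 0% of patched-like genes. With the window extended past the end, 5 grl genes were bound. With the nearest start only, 6 members, 1 wrt gene and 2 ptr genes were bound (7.69% of patched-like genes). Without sites near tRNA genes, 1 grl gene was bound. Without sites near any small RNA gene, added after the sites were seen, 6 members, 1 wrt gene and 1 grl gene were bound (3.51% of ligand-like genes). The lists of single replicates are separate lists that held fewer sites (1682 and 1355, against 2703). Stricter lists, lists with sites taken out and narrower windows can only lose genes by construction, and a longer window can only gain them. The cause of the other shifts was not tested. Depth is unknown, so a gene without a site is not shown to be free of TRA-1.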
